A study of Drosophila melanogaster with 4 samples.

Results

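The innate immune genes described here are those of microbe recognition and of the Toll and Imd pathways of *Drosophila melanogaster*, in larvae mutant for *poly* and in wild-type larvae. They were chosen by name: every gene with a probe whose symbol begins with PGRP-, with GNBP or with Tep and a number, together with a fixed list of Toll and Imd pathway genes. This gave 33 genes, measured by 36 probes, among 11907 genes with a named probe. *Rel*, *dl* and *cact* had 2 probes each. The rule used no measured value, but it was set with earlier results of these data known. No probe of its own was named here for any of 13 further genes of these families, among them the receptors *PGRP-LC* and *PGRP-SA*, the kinase *Tak1* and the receptors *Toll-6* and *Toll-9*, and they were not analysed here. *Tep5* has a probe and is given under its current symbol, *Tep5Psi*.

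RNA of whole *poly* larvae was compared with RNA of whole wild-type Canton S larvae, both early in the third instar and from vials with fresh yeast paste. The labels give the mutant genotype as poly05137/TM6B, an allele with a P-element in the single intron of *poly* that is kept over a balancer chromosome, and they give Canton S as the genetic background of both groups. The sources used here do not say whether homozygous larvae were picked out. There were 4 2-colour arrays, each with separate biological samples of *poly* and wild-type larvae. The *poly* samples were labelled with Cy5 on the arrays of replicates 1 and 2, and the dyes were swapped on those of replicates 3 and 4. The values are normalised log2 ratios of *poly* over wild-type, so that a ratio of 1 is a doubling and a ratio of −1 a halving in *poly* larvae. Levels in each genotype were not analysed here, so neither the level of a transcript nor its signal over background is known.

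*Drosophila* answers infection through a pair of pathways that end in transcription factors of the NF-κB family. In the Toll pathway, circulating recognition proteins start a chain of serine proteases that cleaves Spätzle, the ligand of Toll, and the signal frees Dorsal and Dif from their inhibitor Cactus. In the Imd pathway, peptidoglycan of the kind found in Gram-negative bacteria binds membrane or cytosolic receptors, and a kinase relay leads to cleavage of Relish. Fat body, haemocytes and gut epithelium are the main sites of these responses in larvae. Most steps act through proteins that are already present, but the transcripts of *Rel*, *pirk* and several peptidoglycan recognition proteins are themselves raised by infection.

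The transcript of *poly* itself (CG9829, listed under its current symbol *Elp6*) was lower on every array, under both dye orientations. On the 4 arrays, in the order of the replicates, the log2 ratio was −1.49, −1.57, −1.69 and −1.79, and it averaged −1.63 ± 0.13 (SD, n = 4; limma adjusted p = 0.0109). Since the direction of all ratios was read from this probe, its sign is no check of the labels. Over all probes, array medians lay between −0.04 and 0.15 and array SDs between 0.49 and 0.90, the widest on replicate 3. The Pearson correlation between arrays across probes was 0.62 for replicates 1 and 2 and 0.30 for replicates 3 and 4. Between arrays of opposite dye orientation it lay between −0.18 and 0.44, and the value below 0 was that of replicates 2 and 3.

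None of the 33 genes passed the test in either direction, against 149 genes lower and 169 higher, or 2.67%, of all genes (limma, adjusted p over all probes, threshold 0.05). At an unadjusted p under 0.05 there were 6 of the 33, or 18.2%, against 17.0% of all genes, which is close to the background. Without replicate 1, 2 or 4 no gene on the arrays passed, so that every call named here, that of *poly* included, was lost there. At the unadjusted p, the higher ones were *Rel*, *grass* and *Tab2*, and the lower ones were *PGRP-SC2*, *Tep3* and *PGRP-LB*. Ratios were above 0 on all 4 arrays for 6 of the 33 genes (*Rel*, *pirk*, *Tab2*, *grass*, *pll* and *Toll-4*; 18.2%, against 14.8% of all genes). They were below 0 on all 4 arrays for 3 (*PGRP-SC2*, *PGRP-LB* and *Tep3*; 9.09%, against 11.9% of all genes). The samples were whole larvae, so fewer cells of a type and less RNA per cell cannot be told apart in any of these ratios.

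**Figure D1:**
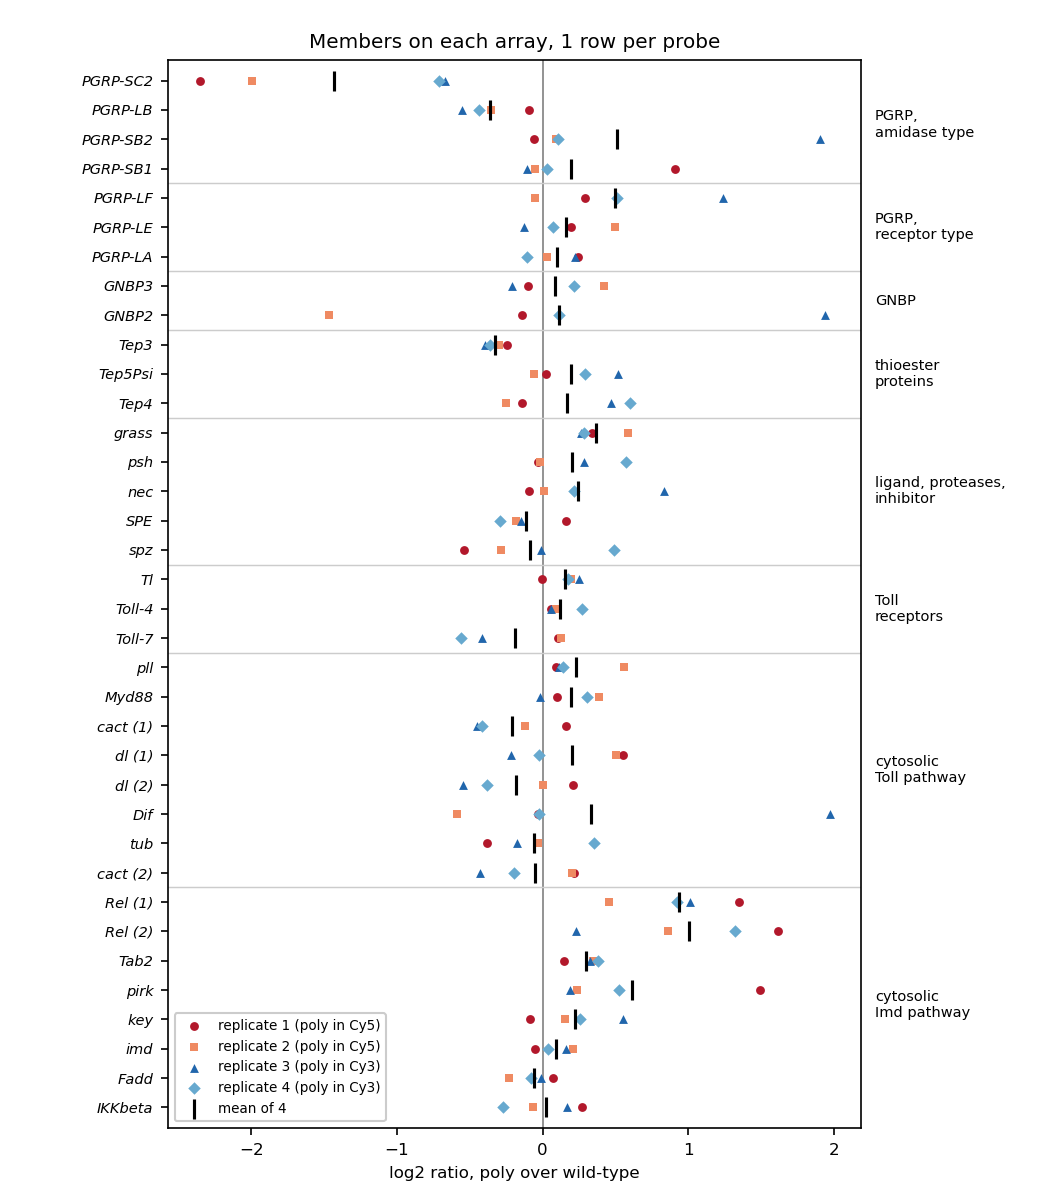
Log2 ratio of *poly* over wild-type for each of the 36 probes of the 33 genes, in rows grouped by role, with 1 symbol per array (circles and squares, *poly* in Cy5; triangles and diamonds, *poly* in Cy3) and a bar at the mean of the 4. *Rel* lies to the right of 0 and *PGRP-SC2* to the left of 0 on every array, while the triangles of *Dif*, *GNBP2* and *PGRP-SB2* lie between 1.91 and 1.97, far from their other symbols.

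The median over the 33 genes of the mean log2 ratio was 0.15, against 0.04 over all named genes, and it was 0.05, 0.03, 0.16 and 0.14 on replicates 1 to 4, against −0.01, −0.05, 0.16 and 0.01 over all genes. Without replicate 3 the median of the 33 was 0.07. Mean ratios were above 0 for 24 of the 33 (72.7%, against 57.1% of all genes) and below 0 for 9. A mean log2 ratio beyond 0.5 in size was seen for 4 of the 33 (*PGRP-SC2*, *Rel*, *pirk* and *PGRP-SB2*; 12.1%, against 16.5% of all genes). The limma 95% interval lay wholly between −1 and 1 for 26 of the 33 genes (78.8%, against 71.9% of all genes) and between −0.5 and 0.5 for 10 (30.3%, against 36.9%). For those 26 genes a doubling or a halving lies outside the interval.

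Relish (*Rel*, CG11992, chromosome arm 3R), the transcription factor at the end of the Imd pathway, had the smallest p of the 33 genes. Its first probe had log2 ratios of 1.35, 0.45, 1.01 and 0.92 on replicates 1 to 4, and its second probe 1.62, 0.86, 0.23 and 1.32. All 8 ratios were above 0, highest on replicate 1 for both probes, with the lowest value on replicate 2 for one probe and on replicate 3 for the other. The means were 0.93 ± 0.37 and 1.01 ± 0.60 (SD, n = 4), about 1.91-fold and 2.01-fold, with limma 95% intervals of 0.49 to 1.37 and 0.36 to 1.66. The adjusted p was 0.0747 for the first probe and 0.138 for the second, both above the threshold. With array weights the second probe passed (1.17, adjusted p = 0.0275) and the first did not (0.88, adjusted p = 0.0541). The weights were 2.10 and 2.44 on replicates 1 and 2, and 0.289 and 0.675 on replicates 3 and 4. Under them 639 genes were lower and 622 higher over all genes, against 149 and 169 without weights. The probes differed most on replicate 3, by 0.78 on the log2 scale, against 0.26 to 0.41 on the other arrays.

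*Rel* lies inside another gene, *Nmdmc*, in the current RefSeq annotation, and the labelling did not keep the strand. The *Nmdmc* probe had log2 ratios of −0.12, −0.40, −0.38 and −0.29, a mean of −0.30 ± 0.13 (SD, n = 4, adjusted p = 0.268). All 4 values were below 0, where those of both *Rel* probes were above 0. In all, 12 of the 33 genes overlap a protein-coding gene there, among them *pll*, *nec*, *Fadd* and *PGRP-LB*, which lie inside one, and their signal could not be told apart from that of the partner by strand.

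Pirk (*pirk*, CG15678), an inhibitor that Imd signalling switches on and that acts on the receptors, had log2 ratios of 1.50, 0.24, 0.19 and 0.52. All 4 were above 0, and replicate 1 stood well above the others. The mean was 0.61 ± 0.61 (SD, n = 4, adjusted p = 0.347), with an interval of −0.04 to 1.26 that takes in 0. Tab2 (*Tab2*, CG7417), the partner of the kinase Tak1, had 0.15, 0.35, 0.33 and 0.38, a narrow set of small positive values with a mean of 0.30 ± 0.10 (SD, n = 4, adjusted p = 0.243). The remaining cytosolic genes of this pathway had mean ratios between −0.06 and 0.22. The adaptor *imd* (CG5576) itself had −0.05, 0.21, 0.16 and 0.04, a mean of 0.09 ± 0.12 (SD, n = 4), with an interval of −0.18 to 0.36. *Fadd*, the adaptor below it, averaged −0.06, and the kinase subunits *key* and *IKKbeta* averaged 0.22 and 0.02, with adjusted p-values between 0.563 and 0.971 for these 3.

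**Figure D2:**
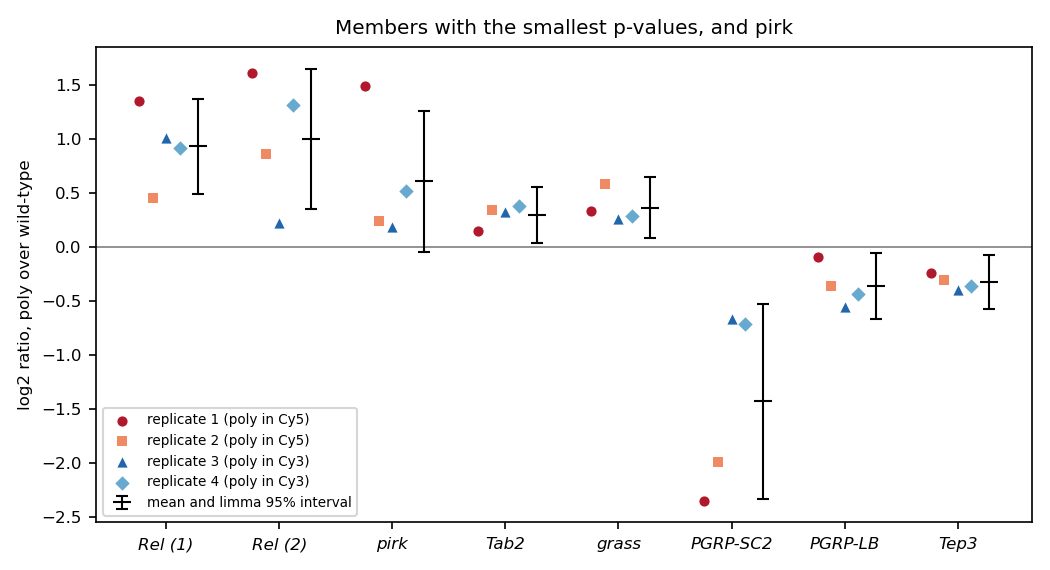
Log2 ratio of *poly* over wild-type on each array (coloured symbols) with the mean and its limma 95% interval (black) for the 6 genes with an unadjusted p under 0.05 and for *pirk*; *Rel* has 2 probes. Every symbol of *Rel*, *Tab2* and *grass* is above 0 and every symbol of *PGRP-SC2*, *PGRP-LB* and *Tep3* below it, and the interval of *pirk* runs from −0.04 to 1.26.

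The amidase-type peptidoglycan recognition proteins, enzymes that cut peptidoglycan and some of which so limit Imd signalling, held the lowest mean ratio of the 33. *PGRP-SC2* (CG14745, arm 2R) had log2 ratios of −2.35, −2.00, −0.67 and −0.71 on replicates 1 to 4. The values fell into a low pair with *poly* in Cy5 and a higher pair with *poly* in Cy3, and all 4 were below 0. The mean was −1.43 ± 0.87 (SD, n = 4), or 0.371-fold, with an interval of −2.34 to −0.53 and an adjusted p of 0.132. With a dye term in the fit, which takes up this difference between pairs, the ratio of −1.43 passed (adjusted p = 0.0374), where 1.35% of all genes passed. It also passed with array weights (−1.90, adjusted p = 0.018), which favoured replicates 1 and 2, where the ratios of this gene were lowest. Under these weights 639 genes were lower and 622 higher over all genes. Over all settings the adjusted p of *PGRP-SC2* ran between 0.018 and 0.405. The related genes *PGRP-SC1a* and *PGRP-SC1b* share 1 probe that names both. Probes with several names were assigned to no gene here, so its ratios are not reported. Whether the *PGRP-SC2* probe also bound the transcripts of these related genes is not known here.

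*PGRP-LB* (CG14704), another amidase of gut and fat body, had −0.09, −0.36, −0.55 and −0.43, smaller values that were also below 0 on every array. Its mean was −0.36 ± 0.20 (SD, n = 4, adjusted p = 0.239), with an interval of −0.67 to −0.05. The adjacent genes *PGRP-SB1* and *PGRP-SB2* each rested on 1 array. *PGRP-SB1* had 0.91 on replicate 1 and between −0.11 and 0.03 on the others, and *PGRP-SB2* had 1.91 on replicate 3 and between −0.06 and 0.11 on the others. Their means of 0.19 and 0.51 (adjusted p = 0.753 and 0.634) did not exceed the spread between replicates. No array held a high ratio of both *PGRP-SB* genes, and the means of the amidase genes lay on both sides of 0.

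The receptor-type proteins had means above 0 with no call. *PGRP-LF* (CG4437), a membrane protein that holds Imd signalling in check, had 0.29, −0.05, 1.24 and 0.51, a mean of 0.50 ± 0.55 (SD, n = 4, adjusted p = 0.408), with the highest value on replicate 3. *PGRP-LE*, a sensor of peptidoglycan in the cytosol, had 0.20, 0.50, −0.12 and 0.07, and *PGRP-LA*, which lies close to *PGRP-LF*, had 0.25, 0.03, 0.22 and −0.11. Their means were 0.16 ± 0.26 and 0.10 ± 0.17 (SD, n = 4). Neither exceeded the spread between its replicates.

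Among the glucan-binding family, *GNBP3*, a sensor of fungal cell walls, stayed between −0.21 and 0.42 on the 4 arrays. *GNBP2* had −0.14, −1.46, 1.94 and 0.11, the widest spread of the 33 genes, with opposite large values on replicates 2 and 3 and a mean of 0.11 ± 1.40 (SD, n = 4, adjusted p = 0.967). Without replicate 3 its mean was −0.50. The interval of −1.31 to 1.53 holds both a doubling and a halving.

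The thioester proteins are secreted relatives of vertebrate complement factors. *Tep3* (CG7068) had the least spread of all 36 probes, with −0.24, −0.30, −0.39 and −0.36, a mean of −0.33 ± 0.07 (SD, n = 4, adjusted p = 0.193) and an interval of −0.57 to −0.08. The change was about 0.798-fold, lower on all 4 arrays, and its p did not pass after adjustment. *Tep4* had −0.14 and −0.25 with *poly* in Cy5 but 0.47 and 0.60 with *poly* in Cy3, and *Tep5Psi*, which the annotation lists as a pseudogene, had 0.02, −0.06, 0.51 and 0.29. The ratio of *Tep4* thus changed sign with the dyes, and its mean of 0.17 ± 0.43 (SD, n = 4) lay within its spread.

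In the extracellular part of the Toll pathway, *grass* (CG5896), a protease that relays recognition of bacterial and fungal cell walls, had 0.34, 0.59, 0.26 and 0.29. All 4 values were above 0, the highest on replicate 2. The mean was 0.37 ± 0.15 (SD, n = 4, adjusted p = 0.196), or 1.29-fold, with an interval of 0.08 to 0.65. *psh*, the protease that senses microbial proteases, had −0.03, −0.02, 0.28 and 0.57, and *nec*, the serpin that holds it in check, had −0.09, 0.01, 0.83 and 0.22. Both were near 0 with *poly* in Cy5 and above 0 with *poly* in Cy3. *SPE*, the enzyme that cleaves Spätzle, averaged −0.11 ± 0.19 (SD, n = 4, adjusted p = 0.747). The ligand *spz* (CG6134) had −0.54, −0.28, −0.01 and 0.49, on both sides of 0, with a mean of −0.09 ± 0.44 (SD, n = 4, adjusted p = 0.906).

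The receptor *Tl* (CG5490) had 0.00, 0.19, 0.25 and 0.17, a mean of 0.15 ± 0.11 (SD, n = 4, adjusted p = 0.589) and an interval of −0.11 to 0.42. Its relative *Toll-4* was above 0 on every array with small values, 0.05, 0.09, 0.06 and 0.27. *Toll-7*, a receptor linked to antiviral autophagy, had 0.10 and 0.12 with *poly* in Cy5 and −0.42 and −0.56 with *poly* in Cy3, so its mean of −0.19 ± 0.35 (SD, n = 4) combined pairs of opposite sign. The interval of each of the 3 receptors lay between −0.62 and 0.42.

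Inside the cell, the adaptor *Myd88* averaged 0.19 ± 0.19, the adaptor *tub* −0.06 ± 0.31 and the kinase *pll* 0.23 ± 0.22 (SD, n = 4 each; adjusted p between 0.507 and 0.925). *pll* had 0.56 on replicate 2 and between 0.09 and 0.14 on the others. The inhibitor *cact* (CG5848) had 0.16, −0.12, −0.45 and −0.42 at one probe and 0.22, 0.20, −0.43 and −0.20 at the other, lower with *poly* in Cy3 at both. *dl* (CG6667), which encodes Dorsal, had 0.55, 0.50, −0.22 and −0.02 at one probe and 0.21, 0.00, −0.55 and −0.38 at the other. The probes of *dl* differed by 0.33 to 0.50 on every array and their means, 0.20 ± 0.38 and −0.18 ± 0.35 (SD, n = 4, adjusted p = 0.691 and 0.706), had opposite signs. *Dif* (CG6794), a near neighbour of *dl* that encodes the other Toll-controlled factor, had −0.03, −0.59, 1.97 and −0.02, a mean of 0.33 ± 1.12 (SD, n = 4, adjusted p = 0.813). Replicate 3 alone lay above 0, and without it the mean was −0.21.

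**Figure D3:**
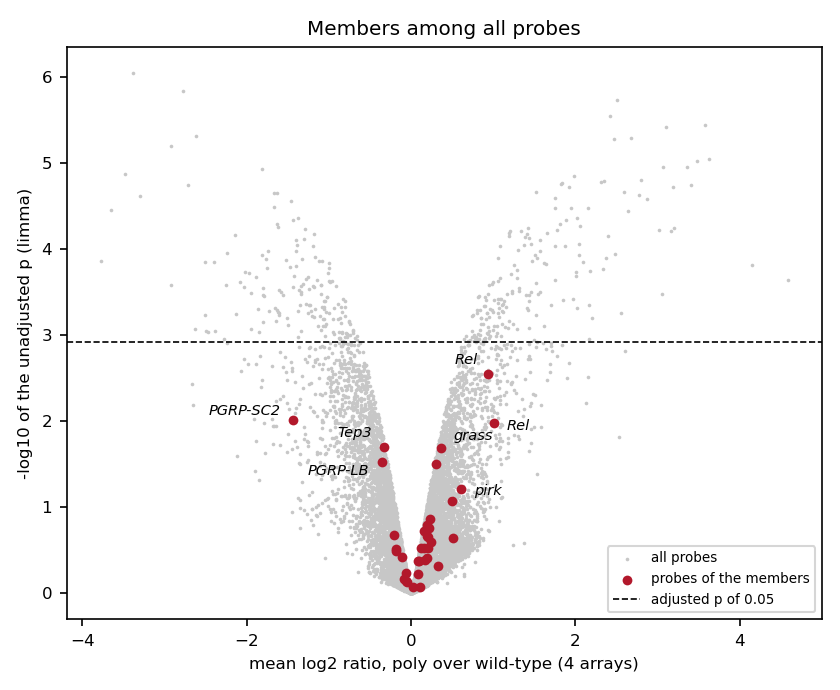
Mean log2 ratio of *poly* over wild-type on the horizontal axis and −log10 of the unadjusted limma p on the vertical axis, for all probes (grey) and the 36 probes of the 33 genes (red). The dashed line marks an adjusted p of 0.05, and no red point reaches it; the nearest is the first *Rel* probe (mean 0.93).

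For many of these genes the ratios differed between arrays and between dye orientations. For 6 of the 33 (*GNBP2*, *Tep4*, *Toll-7*, *cact*, *dl* and *psh*; 18.2%), the ratio, averaged over the probes of a gene, had one sign on both arrays with *poly* in Cy5 and the other sign on both arrays with *poly* in Cy3, against 20.2% of all genes. The first probe of *cact* alone, with 0.16 and −0.12 where *poly* carried Cy5, did not split in this way. Each orientation holds its own replicates, so dye and replicate cannot be told apart in such a pair. No dye term of the 36 probes passed after adjustment (lowest adjusted p = 0.497). The 4 arrays spanned over 0.5 on the log2 scale for 21 of the 33 genes (63.6%, against 66.2% of all genes) and over 1 for 8 (24.2%, against 31.6%). A ratio above 1.9 on replicate 3 was seen at 3 of the 36 probes (*Dif*, *GNBP2* and *PGRP-SB2*; 8.33%) and at 7.57% of all probes, against at most 0.638% of all probes on any other array. The bound of 1.9 lies just under the lowest of these 3 values (*PGRP-SB2*, 1.91), so the count of 3 depends on it. At that bound the share of the 36 probes was close to that of the whole array. Above 0.9 on replicate 3 it was 13.9%, against 17.1% of all probes. Replicate 2 stood apart in the other direction. A ratio below −1.9 was seen there at 3.08% of all probes, against at most 0.776% on any other array, and at 1 of the 36 probes. For 4 of the 33 genes (12.1%) the ratio was highest on replicate 3 and lowest on replicate 2, against 23.6% of all genes.

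**Figure D4:**
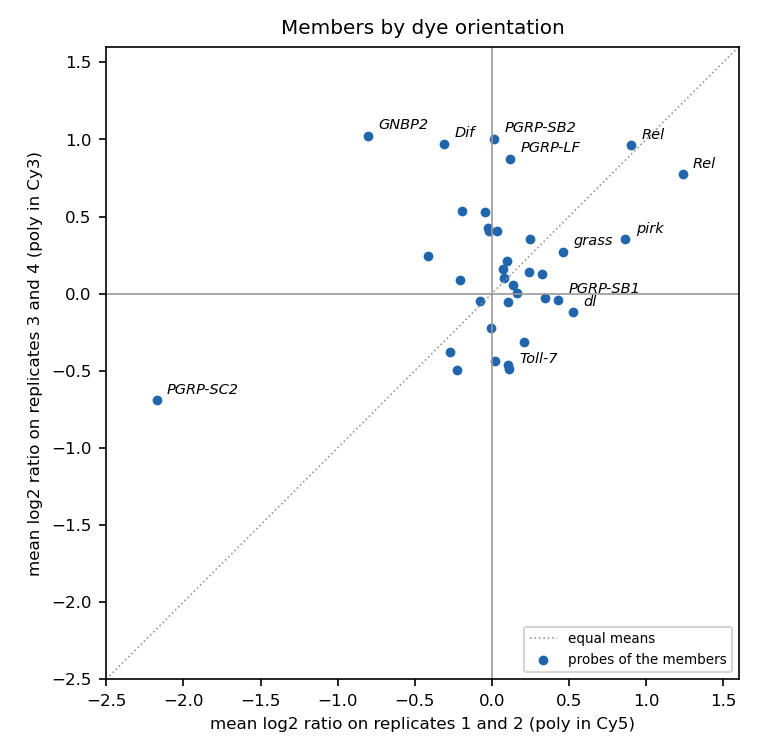
Mean log2 ratio of the 36 probes on replicates 1 and 2, with *poly* in Cy5 (horizontal), and on replicates 3 and 4, with *poly* in Cy3 (vertical), with a dotted line where both are equal. *Rel* lies near that line at the upper right, *PGRP-SC2* lies at the lower left at −2.17 and −0.69, and *GNBP2* and *Dif* lie at the upper left.

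Other genes listed here under either pathway, also chosen with earlier results of these data known, held 1 call. Of 27 further Toll pathway genes with a probe, 3 had an unadjusted p under 0.05 (11.1%, against 17.0% of all genes). Of the 27, 1 passed, in the higher direction, against 2.67% of all genes in either direction. It was *ref(2)P*, the fly relative of p62, an adaptor of selective autophagy that also binds partners in the Toll pathway. Its log2 ratios were 1.38, 1.46, 2.09 and 1.56, all well above 0, with a mean of 1.62 ± 0.32 (SD, n = 4, adjusted p = 0.021). Its call held under every setting tried other than leaving out replicate 1, 2 or 4. *pip*, a sulphotransferase of embryonic patterning, came next, but its probes had means of both signs, the first −0.47 (adjusted p = 0.135). Of 17 further genes listed here under the Imd pathway, none passed and 2 had an unadjusted p under 0.05 (11.8%, against 17.0% of all genes). These were *dnr1*, an inhibitor of the caspase Dredd, with a mean of 0.45 ± 0.19 (SD, n = 4, adjusted p = 0.153), and *IKKepsilon*, a kinase related to IKKbeta, with 0.30 ± 0.16 (SD, n = 4, adjusted p = 0.295). The median ratio was 0.03 for the Toll list and 0.12 for the Imd list, against 0.04 for all genes.

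The antimicrobial and immune-induced peptides are the transcripts by which both pathways are usually read. Of 38 such genes listed, 22 had a probe named here. None of the 22 passed, and 6 had an unadjusted p under 0.05, all higher (27.3%, against 17.0% of all genes). Ratios were above 0 on all 4 arrays for 8 of the 22 (36.4%, against 14.8% of all genes) and below 0 on all 4 for none (against 11.9%). Mean ratios were below 0 for 5 of the 22. The lowest was that of *Drsl2*, with −1.76, −1.84, 0.69 and −1.19, a mean of −1.02 ± 1.18 (SD, n = 4, adjusted p = 0.400). *Drs*, which encodes drosomycin and is the usual readout of Toll signalling in the fat body, had 1.74, 1.08, 1.41 and 0.70, all above 0, with a mean of 1.23 ± 0.44 (SD, n = 4, adjusted p = 0.0546) and an interval of 0.73 to 1.74. *BomS4*, one of the Bomanins, short peptides induced by Toll, had 0.91, 0.76, 0.37 and 0.40, a mean of 0.61 ± 0.27 (SD, n = 4, adjusted p = 0.116). With array weights both passed (1.30, adjusted p = 0.0179, for *Drs* and 0.75, adjusted p = 0.0197, for *BomS4*). Under these weights, which favoured replicates 1 and 2, 639 genes were lower and 622 higher, against 149 and 169 without them. The median over the 22 was 0.26, and 0.36, 0.15, 0.46 and 0.00 on replicates 1 to 4.

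Among the readouts of the Imd pathway, *DptB* and *AttB* were high on replicate 1 alone. *DptB*, a diptericin, had 2.13 on replicate 1 and between −0.48 and 0.47 on the others, and *AttB*, an attacin, had 1.88 there and between −0.12 and 0.45 on the others. Their mean ratios of 0.51 ± 1.14 and 0.61 ± 0.88 (SD, n = 4, adjusted p = 0.697 and 0.524) lay within the spread. *AttD*, another attacin, had 0.44 on replicate 1, and *Def*, a defensin, had −0.06. *edin*, from the Imd list, had 0.10 on replicate 1 and 2.88 on replicate 3. On replicate 1 *Rel*, *pirk* and *PGRP-SB1* also had their highest ratios, between 0.91 and 1.62, while *PGRP-SC2* had its lowest. This was not limited to Imd genes: *Drs*, *BomS2* and *BomS4* were highest there too, with 1.74, 1.20 and 0.91. The Bomanin *BomT3* had 2.63 on replicate 3 and 0.31 on replicate 1. On replicate 1, 11 of the 33 genes were highest and 12 lowest (33.3% and 36.4%, against 16.9% and 21.7% of all genes). Ratios above 0.9 on that array were seen at 4 of the 36 probes (both of *Rel*, *pirk* and *PGRP-SB1*; 11.1%) and at 2.56% of all probes. These genes and this bound were chosen after their values were seen, and a single replicate gives no test. The diptericin and attacin ratios on the other 3 arrays lay on both sides of 0, where those of *Rel* stayed above it.

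**Figure D5:**
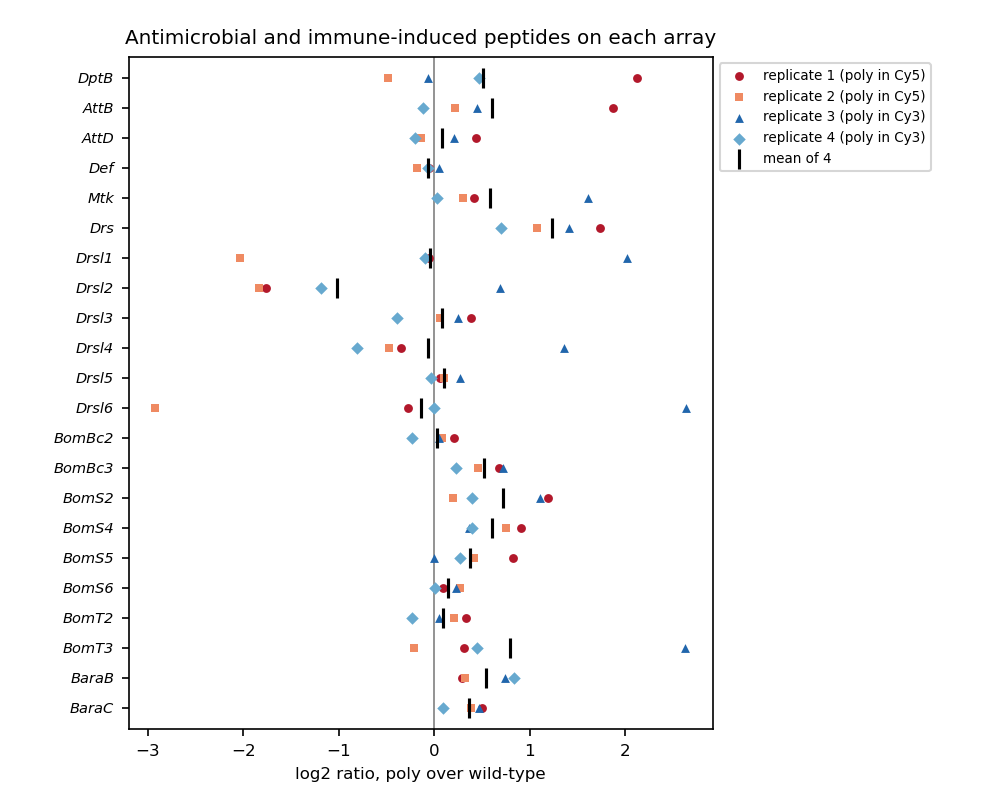
Log2 ratio of *poly* over wild-type on each array (coloured symbols) and their mean (bar) for the 22 peptide genes with a probe. *Drs* lies between 0.70 and 1.74 on the 4 arrays, *DptB* and *AttB* reach 2.13 and 1.88 on replicate 1 alone, and *Drsl1*, *Drsl6* and *BomT3* are above 2 on replicate 3 alone. On replicate 2, *Drsl1* and *Drsl6* lie far on the other side of 0, at −2.03 and −2.92.

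Markers of the tissues that carry these responses had uneven ratios. Of 12 haemocyte genes, 1 passed, against 2.67% of all genes. It was *NimC1*, a phagocytosis receptor, with a mean of 1.50 ± 0.52 (SD, n = 4, adjusted p = 0.0492). The median of the list was −0.0017, and 6 of the 12 had means above 0. The call of *NimC1* was lost with median centring (adjusted p = 0.0684), with a robust prior, with scaled arrays and with any 1 replicate left out. Next came *ItgaPS4*, an integrin subunit, with a mean of 0.31 ± 0.13 (SD, n = 4, adjusted p = 0.254). Ratios were above 0 on all 4 arrays for 3 of the 12 (25.0%, against 14.8% of all genes). They were below 0 on all 4 for 2 (16.7%, against 11.9%), *lz* and *eater*, with means of −0.30 and −0.25 (adjusted p = 0.363 and 0.365). The lowest mean was that of *PPO1*, −0.92 (adjusted p = 0.405). None of 5 fat body genes passed and 1 had an unadjusted p under 0.05 (20.0%, against 17.0% of all genes). It was *Fbp2*, with −0.13 on replicate 1 and 3.62, 3.19 and 3.43 on the others (mean 2.52 ± 1.78, SD, n = 4, adjusted p = 0.169). *Apoltp*, a lipid transfer apolipoprotein, averaged −0.40 ± 0.48 (SD, n = 4, adjusted p = 0.46). The other fat body genes also swung between arrays. *Lsp2* and *Fbp1* had −3.48 and −2.345 on replicate 1 but 3.43 and 5.215 on replicate 3, where *apolpp* had −1.675. Replicates 1 to 4 gave the fat body list medians of −0.40, 0.04, 3.19 and 0.13. Of 29 digestive genes of the larval gut, 5 passed, against 2.67% of all genes, and 12 had an unadjusted p under 0.05 (41.4%, against 17.0%). Of the 5, 4 were higher (*Jon66Ci*, *Jon66Cii*, *Jon65Ai* and *Mal-A6*, means between 1.09 and 2.56) and 1 was lower (*Mal-A2*, −0.89). The list medians were 0.40, 0.63, 0.32 and 1.03. With a dye term 3 of these 5 gut calls were lost and 3 others gained (*Mal-A1*, *Mal-A8* and *alphaTry*), and with scaled arrays 4 were lost and none gained. All 5 were lost without replicate 1, 2 or 4. None was lost with averaged probes or without replicate 3, where 2 were gained in each case. With array weights, which raised the calls over all genes to 639 lower and 622 higher, none was lost and 7 were gained. The part of these tissues in the ratios of *Rel*, *PGRP-SC2* or the peptides was not tested.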

How the data were processed

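The authors reverse-transcribed 5 µg of total RNA, made the cDNA double-stranded, labelled 500 ng of it by random priming and hybridised the product to long-oligonucleotide arrays. They quantified spots with Dapple and normalised them with vsn, and deposited 1 log2 ratio per probe and array, for 14569 probes without gaps. The direction of the ratio is not stated in the file: it was read from the *poly* probe, which was below 0 in all 4 columns although the dyes were swapped. The sources used here give neither the background correction nor the spot filters. Precision is limited by the number of arrays.

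Gene symbols came from the platform annotation, updated through RefSeq: 12657 had 1 symbol, 96 several and 1816 no name here. RefSeq was used for names, chromosome arms and the order and overlap of genes.

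Each probe's 4 ratios were tested against 0 with limma (version 3.58.1 in R 4.3.3, functions lmFit and eBayes). The test was two-sided, and p-values were adjusted over all probes by Benjamini and Hochberg's method. The fit had 4.97 degrees of freedom, 1.97 of them from the prior. A gene was called where at least 1 of its probes passed and no other passed in the opposite direction. Medians of lists used the mean of each gene's probes. SDs are between the 4 arrays and intervals are limma's 95% intervals.

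The 33 genes, the role classes, the other pathway genes, the peptides, the markers and the tests were chosen with earlier results of these data known. Named are every listed gene that passed, the 3 genes with the smallest p in each class, *Tl*, *spz*, *Rel*, *imd*, *dl* and *Dif*, and the 2 genes with the smallest p in each other list; other examples were picked with their values in view. Alternative settings were a dye term, array weights, arrays centred on their median, arrays also scaled to a common median absolute deviation, the mean of the probes of a gene, a robust prior, the least variable probe per gene (for the median) and each replicate left out in turn.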

Additional observations from a re-analysis of the deposited data

Results flagged for a closer look

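A single array far from the other 3 was looked for at the 36 probes of the 33 genes and at 1 probe each of 37 other genes named here or listed as peptides. The remaining genes of the marker and pathway lists were not tested in this way. Of these 73 probes, 5 exceeded Dixon's 95% critical value for 4 values, a rule that flags about 1 in 20 groups by chance. Of the 36 probes 4 did so (11.1%), against 7.46% of all probes on the arrays. *PGRP-SB2* had 1.91 on replicate 3, with a gap to the next array of 0.916 of its range. *PGRP-SB1* had 0.906 on replicate 1 (0.86 of its range). *pll* had 0.561 on replicate 2 (0.891 of its range), and *Toll-4* had 0.268 on replicate 4 (0.836 of its range), a small value within a narrow range. The fifth was *Fbp2*, a fat body gene, with −0.132 on replicate 1 (0.886 of its range) and over 3 on each other array.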

How the results depend on the processing

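The count of the 33 genes that passed limma stayed at 0 lower and 0 higher with median centring, scaled arrays, averaged probes, a robust prior and without replicate 1, 2, 3 or 4 (range 0 to 0). With a dye term 1 gene was lower (*PGRP-SC2*), and with array weights 1 was lower (*PGRP-SC2*) and 1 higher (*Rel*). Array weights raised the calls over all genes to 639 lower and 622 higher, with weights of 2.10, 2.44, 0.289 and 0.675 on replicates 1 to 4, and a dye term reduced them to 65 lower and 96 higher. Scaled arrays gave 134 lower and 83 higher and median centring 141 lower and 135 higher, against 149 and 169. Without replicate 1, 2 or 4 no gene on the arrays passed (1343, 1291 and 1637 genes had an unadjusted p under 0.05). Leaving out replicate 3 gave 151 lower and 216 higher. The cause of these differences was not tested.

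The median log2 ratio of the 33 genes was 0.15, and between 0.069 and 0.15 with 1 replicate left out, the lowest without replicate 3. It was 0.13 with median centring, 0.11 with scaled arrays and 0.15 with averaged probes or the least variable probe.

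The mean of 9 genes, none of them called, changed sign under at least 1 setting. With array weights it was −0.17 for *Dif*, −0.59 for *GNBP2*, −0.067 for *Tep4* and 0.0031 for *Toll-7*. Scaled arrays gave −0.06 for *GNBP2*, and median centring −0.0037 for *IKKbeta*. With 1 replicate left out the means ran between −0.21 and 0.64 for *Dif*, −0.50 and 0.64 for *GNBP2*, −0.031 and 0.18 for *GNBP3*, −0.057 and 0.12 for *IKKbeta*, −0.042 and 0.30 for *PGRP-SB1*, −0.28 and 0.067 for *spz*, and −0.19 and 0.052 for *tub*. Each ratio compares *poly* with wild-type within an array, so the test of the ratios against 0 is already paired by replicate and no further block was fitted.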
